A study of Mus musculus with 24 samples.

Results

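The response to IL-4 of macrophages that lacked STAT6 and were kept with rosiglitazone (RSG) was examined on 6 of the 24 arrays of the study. The labels put 3 arrays in the group of Stat6 knockout (KO) macrophages with IL-4 and RSG and 3 in the group of KO control macrophages with RSG and no IL-4. Their titles carry the numbers 4, 5 and 6, with 1 array of each number in each group. Arrays with the same number are taken here to come from the same mouse, which gives 3 mice. Marrow cells of the femur were cultured over 10 days in M-CSF (20 ng/ml), which all groups received. This growth factor turns marrow cells into macrophages. IL-4 was given at 20 ng/ml and RSG at 1 µM, and cultures without RSG had the solvent of the drug, DMSO with ethanol, called vehicle here. For comparison, the same IL-4 treatment with vehicle was measured in the same 3 KO mice on 6 other arrays, and with RSG in 3 wild-type (WT) mice, numbered 1, 2 and 3, on 6 more. The last 6 arrays, of WT cultures with vehicle, entered no comparison. They did enter the estimate of the spread, the medians that the values were divided by and the choice of probe sets. Per the study's methods the Stat6-/- mice were bought from The Jackson Laboratory. The study's text names C57Bl/6 as the strain of the WT mice and names no strain for the Stat6-/- mice. The labels do not give the age of the mice.

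The IL-4 receptor activates STAT6, a transcription factor, through JAK kinases, and STAT6 drives the gene program known as alternative activation. RSG is a synthetic ligand of PPARγ, a nuclear receptor that pairs with RXR and switches on genes of lipid uptake, transport and storage. The IL-4 receptor also signals through insulin receptor substrates, a branch that does not need STAT6. The question addressed here was which genes still changed with IL-4 when STAT6 was absent and PPARγ had a ligand.

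Each value was a log2 ratio to the median of that probe set over the 24 arrays, so 0 is the probe set's own median and levels of different genes cannot be compared. Values on single arrays are given in the order of mice 4, 5 and 6, and changes are differences of group means ± SE from limma with 3 arrays per group. A gene was called when its Benjamini-Hochberg adjusted p from limma was under 0.05 and its change at least 1.5-fold. Stat6 itself was at -1.89, -1.75 and -1.92 in KO control RSG and at -1.84, -1.81 and -1.56 in KO IL-4 RSG. On the WT arrays with RSG it lay between 0.73 and 1.15, above every KO array, which fits the genotype labels. The place of the probes relative to the deletion was not tested.

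Markers of other cell types differed between the groups, and 1 control array of this comparison stood apart. The mean log2 ratio over 19 genes of stromal fibroblasts was 1.34, 1.51 and 4.82 in KO control RSG and -0.01, -0.38 and -0.62 in KO IL-4 RSG. The control array of mouse 6 was thus the highest in these genes, and results that rest on it are given with and without it. The mean over 21 macrophage identity genes lay between -0.07 and 0.07 in KO control RSG and between -0.39 and -0.20 in KO IL-4 RSG. Since ratios carry no level, they cannot show how abundant macrophage markers were. In RNA of whole cultures, fewer cells of a type and less RNA per cell cannot be told apart.

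**Figure D1:**
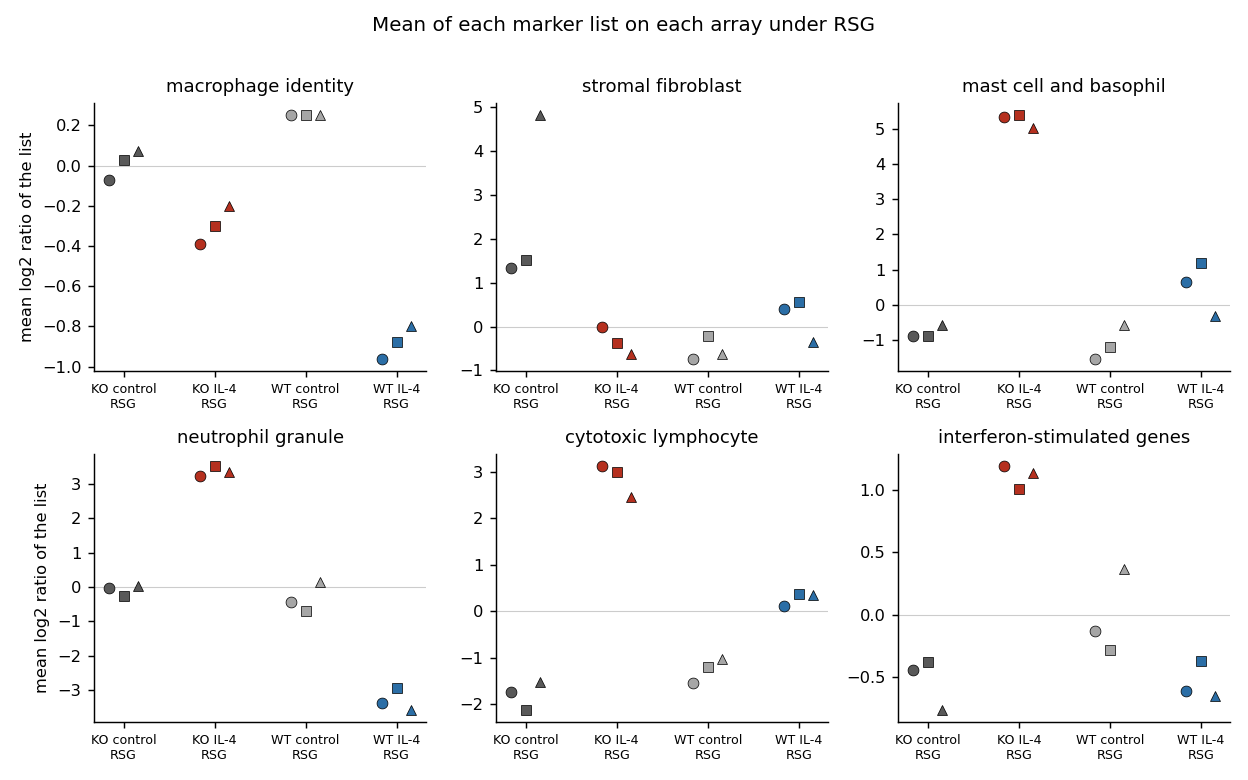
Mean log2 ratio of 6 gene lists on each of the 12 arrays with RSG. Each point is 1 array, and circles, squares and triangles are mice 4, 5 and 6 in KO and mice 1, 2 and 3 in WT. The KO control array of mouse 6 was highest in the stromal list at 4.82, and the 3 KO IL-4 arrays were above all other arrays shown in the mast cell, neutrophil granule, cytotoxic and interferon lists.

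IL-4 changed many genes in KO macrophages under RSG although STAT6 was missing. Of 18193 genes, 734 rose (4.03%) and 628 fell (3.45%). These are the shares to set beside each list count of the IL-4 change in KO under RSG below. The 10 largest rises by the naming rule were led by Mcpt8, a protease of basophils, at 12.18 ± 1.10, and Fcer1a, the IgE-binding chain of the high-affinity IgE receptor, at 9.36 ± 0.65. The 10 largest falls were led by Bgn (biglycan, a matrix proteoglycan) at -6.98 ± 1.66 and held the collagens Col5a2 and Col1a2 and the collagen cross-linking enzymes Lox and Loxl1. Without the KO control RSG array of mouse 6, all 10 of the rises were still called but only 1 of the 10 falls. In the whole table that array mattered less, and without it 610 of the 734 rises and 472 of the 628 falls were called again. Fitted to these 6 arrays only, limma called 605 probe sets as rising and 140 as falling, against 1436 and 1640 in the fit on all 24 arrays. The methods' t-test gave 380 and 182 after adjustment. Leaving out all arrays of mouse 4, 5 or 6 removed 32, 42 or 36 of the 104 calls among the genes that the naming rule chose. The lost calls were not only those near the threshold, as Arg1 (adjusted p = 0.00759 with all arrays) was lost without each of these mice and Jak2 (0.00211) without mouse 5. Arg1 was still called when only these 6 arrays were fitted, but not by the methods' t-test (adjusted p = 0.0664). In the main fit the spread is pooled over all 24 arrays.

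**Figure D2:**
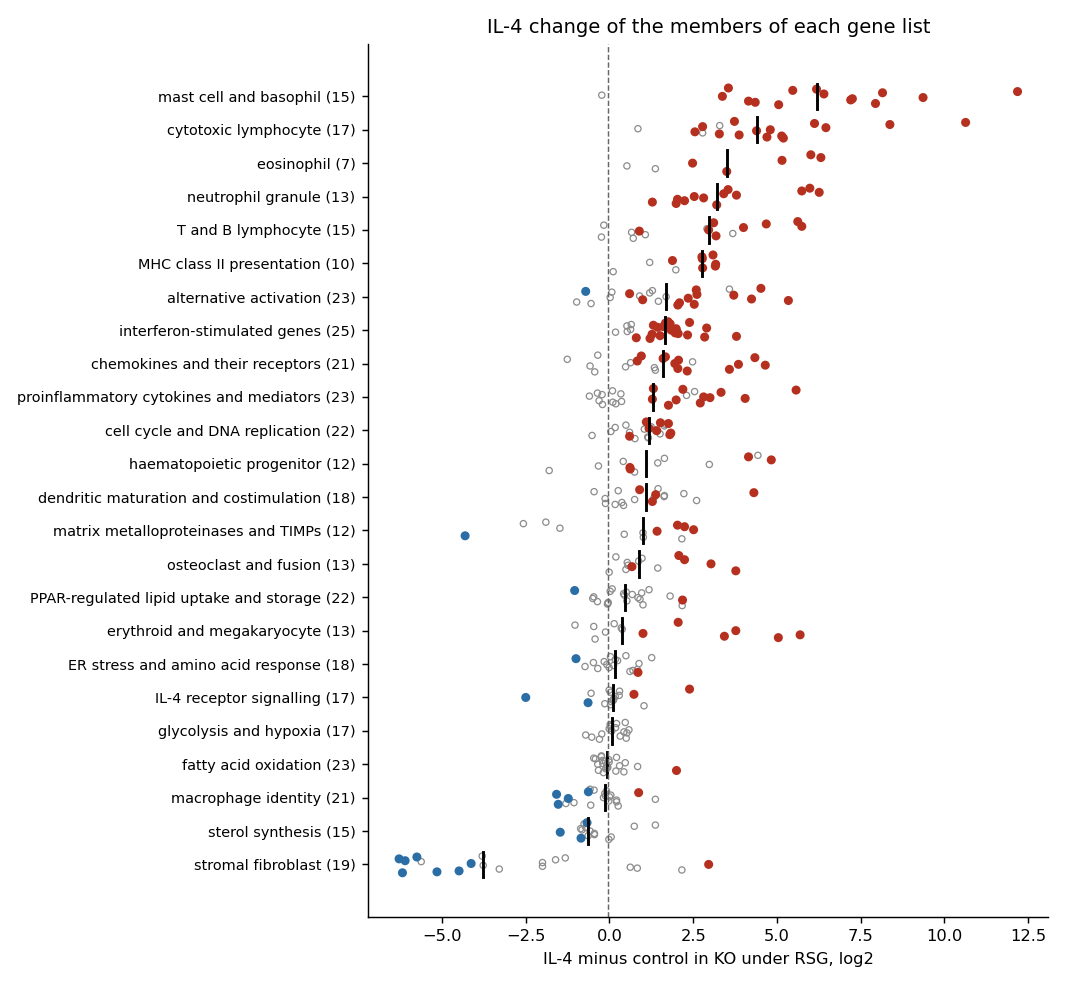
IL-4 minus control in KO under RSG, on the log2 scale, for each measured member of 24 gene lists, with the number of members in brackets. Filled points passed the test (red rose, blue fell), open points did not, black bars are list medians and the dashed line is the median of all genes, -0.05. Medians were highest for the mast cell and cytotoxic lists, at 6.18 and 4.39, and lowest for the stromal list, at -3.77.

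Interferon-stimulated genes, the antiviral program that cells switch on in response to interferon, rose with IL-4 in the absence of STAT6. Of 25 measured genes of the list, 20 rose and 0 fell under RSG, with a median change of 1.67, against 4.03% of genes that rose and a median of -0.05 over all genes. Ifit1, an RNA-binding inhibitor of viral translation, was at -0.30, -0.11 and -0.64 in KO control RSG and at 1.71, 1.24 and 1.23 in KO IL-4 RSG, a change of 1.75 ± 0.22 (adjusted p = 5.64e-05). Usp18, which removes ISG15 from proteins and dampens interferon signalling, was at -1.67, -1.31 and -1.54 without and at 0.57, 0.30 and 0.63 with IL-4, a change of 2.00 ± 0.24 (adjusted p = 4.04e-05). Both genes were higher on all 3 IL-4 arrays than on all 3 control arrays. Oas1a, an enzyme that makes 2′-5′-linked oligoadenylates as a signal for RNA decay, changed by 1.31 ± 0.12 (adjusted p = 3.3e-06). Oasl2, of the same protein family, changed by 2.90 ± 0.26 (adjusted p = 2.43e-06), and Zbp1, a sensor of Z-form nucleic acids, by 2.84 ± 0.33 (adjusted p = 2.6e-05). Gbp2, a guanylate-binding GTPase, changed by 2.05 ± 0.28 and Irf7, a transcription factor that amplifies interferon production, by 1.99 ± 0.33. The change of Ddx58, which encodes the RNA sensor RIG-I, was 0.18 ± 0.18 and that of Oas2 was 0.52 ± 0.28, and neither passed the test. The count was between 17 and 20 when any single array of the comparison or any KO mouse was left out, 13 in a fit restricted to these 6 arrays and 8 by the methods' t-test.

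The upstream sequences of these genes are shown because many hold the letters that interferon-activated factors read. The motif searched was GAAANNGAAA, on both strands, in the 250 bases before each annotated start in the RefSeq promoter table of assembly GRCm38.p6. It was found in 11 of the 19 list members with an entry (57.9%) and in 936 of all 27025 genes (3.46%). Members without it include Oasl2 (2.90), Ifit2 (2.39) and Oasl1 (1.44), which also rose under RSG. The stretches printed are of called members that hold the motif. They were taken in order of how much lower the IL-4 change was with RSG than with vehicle. Capitals mark the motif or its reverse complement, and each stretch is printed in the direction of transcription.
Ifit3 at chr19:34583355-34583434, plus strand: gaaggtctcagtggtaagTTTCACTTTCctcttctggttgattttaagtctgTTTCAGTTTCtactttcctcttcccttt
Ifit1 at chr19:34640759-34640838, plus strand: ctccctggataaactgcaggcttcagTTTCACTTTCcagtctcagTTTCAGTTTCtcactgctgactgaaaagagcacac
Rsad2 at chr12:26456528-26456607, minus strand: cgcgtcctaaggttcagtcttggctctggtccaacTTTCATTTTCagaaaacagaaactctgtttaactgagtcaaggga
Cxcl10 at chr5:92349058-92349137, minus strand: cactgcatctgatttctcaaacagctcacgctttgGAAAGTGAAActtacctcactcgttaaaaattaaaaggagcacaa
Ifit3 and Ifit1 hold 2 copies each within 80 bases, Rsad2 and Cxcl10 hold 1. Rsad2, the antiviral enzyme viperin, changed by 1.84 ± 0.30 and Cxcl10, a chemokine for T cells, by 1.96 ± 0.37. The letters TTCNNNNGAA, the spacing that STAT6 prefers, were in 4 of the 19 interferon-list promoters, in 4 of 16 of the alternative activation list and in 6.76% of all genes. The highest share of any list was in the proinflammatory one, 6 of 16 (37.5%). A match describes the letters only and does not show that a factor bound there.

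The IL-4 change of these genes was smaller with RSG than with vehicle, and a direct test called this for part of the list. With vehicle, 25 of the 25 interferon-stimulated genes rose in KO, with a median change of 3.63, against 5.28% of genes that rose, 7.6% that fell and a median of -0.16 over all genes. The IL-4 change was lower with RSG for 7 of the 25 genes and higher for 0, against 0.115% of all genes lower and 0.011% higher. The median difference was -1.60 over the list and 0.11 over all genes, and 25 of 25 differences were negative, against 7724 of 18193 genes. At an unadjusted p under 0.05, 22 of the 25 were lower. Each gene's probe set was chosen by its SD over arrays that included those with vehicle. Such a choice can favour a large change with vehicle, and the list difference was not run with another choice. Ifit3, a binding partner of Ifit1, was at -0.06, 0.05 and -0.72 in KO control RSG and at 1.65, 1.31 and 1.32 in KO IL-4 RSG. With vehicle it was at -0.21, -0.12 and -0.06 in KO control and at 3.94, 4.61 and 4.43 in KO IL-4. The control arrays lay near one another with and without RSG, whereas all 3 IL-4 arrays with RSG were below all 3 with vehicle. Its change was 1.67 ± 0.27 with RSG and 4.46 ± 0.27 with vehicle, a difference of -2.79 ± 0.38 (adjusted p = 0.00614).

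Of the other members with a called difference, Oasl1, a repressor of Irf7 translation, differed by -2.78 ± 0.37 (adjusted p = 0.00609), from 1.44 with RSG and 4.22 with vehicle. Its IL-4 arrays were at 1.56, 1.30 and 1.10 with RSG and at 3.55, 3.82 and 3.85 with vehicle. Usp18 differed by -2.36 ± 0.34, Ifit1 by -2.06 ± 0.31 and Oas1a by -1.30 ± 0.17. Mx1, an antiviral GTPase, differed by -2.41 ± 0.43 (adjusted p = 0.0406) and Xaf1, an interferon-induced promoter of cell death, by -1.60 ± 0.26 (adjusted p = 0.021). The calls of these last 2 genes were not kept when any of 10 and 8 single arrays were left out (adjusted p up to 0.131 and 0.076) or with mouse as a block (0.0848 and 0.0522), whereas those of Ifit3, Ifit1, Usp18, Oasl1 and Oas1a held without each single array of the KO groups. Without mouse 4, 5 or 6, 0 members of the list were called in limma, 22, 17 and 19 had an unadjusted p under 0.05, and the medians were -1.76, -1.23 and -1.73. Restricted to the 12 KO arrays, the fit called 1 member. After quantile normalization 1 member, Oas1a, was called, with a median of -1.06. In each of these settings 25 of 25 differences were negative. With RSG the list mean was -0.44, -0.38 and -0.76 in KO control and 1.19, 1.01 and 1.14 in KO IL-4, and with vehicle it was -0.33, -0.40 and -0.13 in KO control and 2.72, 3.08 and 3.17 in KO IL-4.

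**Figure D3:**
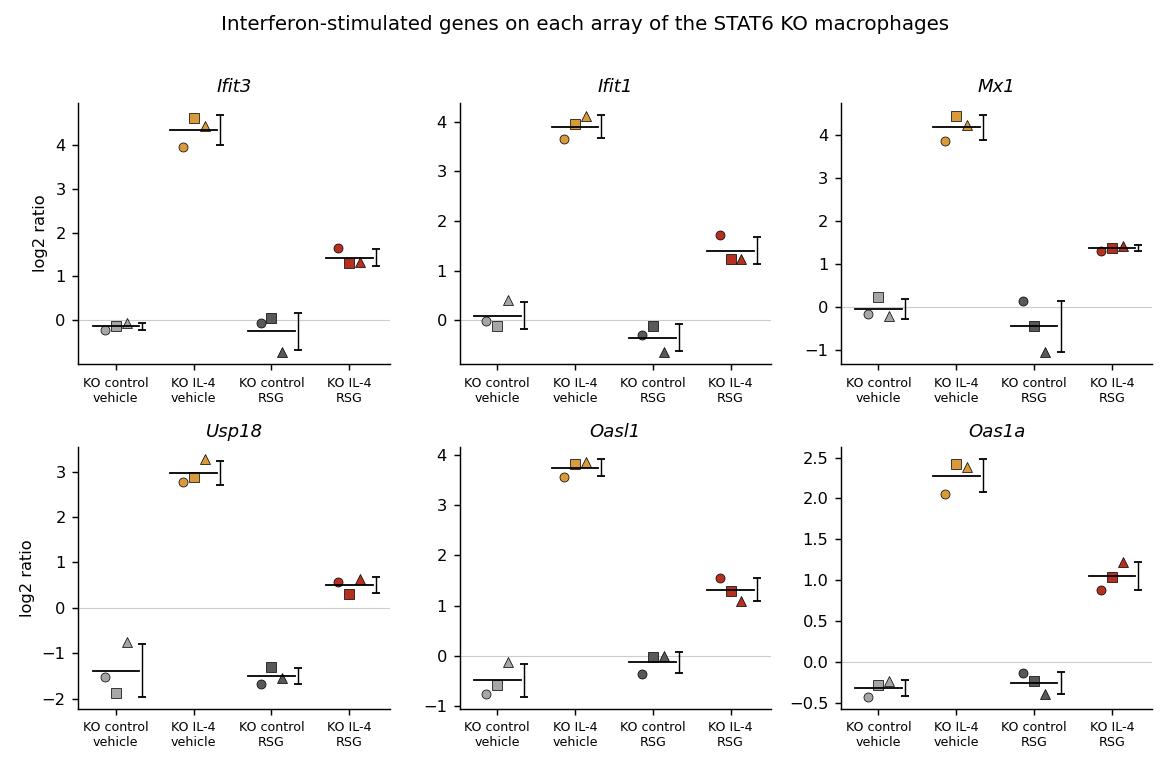
Log2 ratio of 6 interferon-stimulated genes on each KO array, by group. The genes are from the 7 list members with a called difference between RSG and vehicle. Circles, squares and triangles are mice 4, 5 and 6, lines are group means and bars are SD over 3 arrays. For each gene the 3 IL-4 arrays with RSG lay above the control arrays and below the 3 IL-4 arrays with vehicle, as for Ifit3 at 1.31 to 1.65 against 3.94 to 4.61.

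Across all genes, 23 had a called difference between the IL-4 change with RSG and with vehicle, 21 of them lower with RSG. Besides the 7 of the list, several of the others are also known as interferon-induced, namely Phf11d (-2.03 ± 0.26), Isg20, an exonuclease (-2.01 ± 0.30), Ifit1bl1 (-3.27 ± 0.51), Cmpk2, Parp14, Parp9, Znfx1, Ifi35, Sp100 and Rnf213. These genes were named after their values had been seen. Leaving out single arrays ended the call in 11 cases for Parp9, 10 for Cmpk2, 8 each for Ifi35 and Sp100, 6 for Ifit1bl1 and 3 for Parp14 (adjusted p up to 0.131), and in 0 for Phf11d, Isg20, Znfx1 and Rnf213. The remaining 4 that were lower with RSG had no part in the list. Ptx3, a secreted pentraxin, was at 1.51, 0.87 and 3.75 in KO control RSG and at -0.77, 0.05 and -0.42 in KO IL-4 RSG. With vehicle it ran the other way, from -3.96, -2.58 and -1.74 to 0.56, 0.69 and 0.91. The control arrays thus differed between RSG and vehicle more than the IL-4 arrays did. Ptx3 differed by -5.90 ± 1.05, Enpep, an aminopeptidase of angiotensin, by -5.95 ± 0.93, Rai14, an actin-binding protein, by -4.94 ± 0.78, and Lnpk, a shaper of the endoplasmic reticulum, by -4.12 ± 0.73. Each of these 4 calls was lost without certain single arrays, 3 of them for Enpep (adjusted p up to 0.0653), 5 for Rai14 (up to 0.0639), 9 for Lnpk and 10 for Ptx3 (both up to 0.13). The KO control RSG array of mouse 6 was among these for Ptx3 (adjusted p = 0.0685 without it) and Lnpk (0.0575). With mouse as a block, Ptx3, Rai14 and Lnpk did not pass (adjusted p = 0.0599, 0.0522 and 0.0853), nor did Ifit1bl1, Cmpk2, Ifi35, Parp9 and Sp100 (0.0522 to 0.103).

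The IL-4 change was higher with RSG for 2 genes. Sema4b, a membrane semaphorin, was at -2.08, -1.25 and -1.93 in KO control RSG and at 0.22, 0.12 and 0.19 in KO IL-4 RSG. With vehicle it was at -0.13, -0.15 and 0.44 in KO control and at -2.66, -2.60 and -2.72 in KO IL-4. It therefore rose with IL-4 under RSG (1.93 ± 0.36) and fell with vehicle (-2.71 ± 0.36), a difference of 4.65 ± 0.51 (adjusted p = 0.0012) that held without each single array. It did not pass without mouse 4 or mouse 6 (adjusted p = 0.0691 and 0.0966). Sema4b had 2 probe sets, of which 1 was called for the change under RSG. Mmp12, the macrophage elastase, rose under RSG by 2.51 ± 0.24 and had a change of 0.61 ± 0.24 with vehicle that did not pass. That difference, 1.91 ± 0.34 (adjusted p = 0.0406), was lost without any of 10 single arrays (adjusted p up to 0.131) and with mouse as a block (adjusted p = 0.0835).

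Genes of mast cells, basophils and other leukocytes were among the largest rises with IL-4 in KO under RSG. Of 15 mast cell and basophil genes, 14 rose and 0 fell, with a median of 6.18. Mcpt8 was at -0.80, -0.82 and -2.51 in KO control RSG and at 10.73, 10.93 and 10.74 in KO IL-4 RSG. Fcer1a was at -1.49, -1.83 and -1.08 without and at 7.97, 8.03 and 7.68 with IL-4. For both genes the groups were far apart and the 3 IL-4 arrays close together. With a variance trend over the mean ratio, Mcpt8, Hdc and Ctsg were not called (adjusted p = 1, 0.608 and 0.153), while all 3 were called without each mouse and each single array. Cpa3, a carboxypeptidase of mast cell granules, changed by 8.15 ± 1.02, Hdc, which makes histamine, by 7.20 ± 0.83, and Kit, the stem cell factor receptor, by 4.15 ± 0.54. Cyp11a1, a steroid-forming enzyme that the list holds as a mast cell and basophil gene, changed by 7.94 ± 0.86. Tpsab1, a mast cell tryptase, had a change of -0.23 ± 0.88 and did not pass the test.

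All 13 measured neutrophil granule genes rose, with a median of 3.20. Among them Ctsg, or cathepsin G, changed by 6.26 ± 0.35, Mpo, or myeloperoxidase, by 5.98 ± 0.53, and Prtn3, or proteinase 3, by 5.74 ± 0.74. Of 17 genes of cytotoxic lymphocytes 14 rose, with a median of 4.39, and 8 did without mouse 5. Gzmb, granzyme B, was at -6.64, -5.17 and -1.89 without IL-4 and at 6.05, 6.28 and 5.86 with it, and the first of these is the lowest ratio in the table. Its change was 10.63 ± 1.27 (adjusted p = 3.58e-05), a size that this floor limits. Prf1, or perforin, had a change of 0.85 ± 0.34 that did not pass. Of 15 T and B lymphocyte genes 8 rose, or 4 without mouse 5 or mouse 6, among them Cd3d and Cd3g, subunits of the T-cell receptor complex, by 5.62 ± 0.84 and 4.68 ± 0.66, while Cd4 had a change of -0.17 ± 0.55. Of 7 eosinophil genes 5 rose, among them Prg2, the major basic protein, by 6.01 ± 0.85. Of 13 erythroid and megakaryocyte genes 6 rose, among them Ppbp, a platelet chemokine, by 5.69 ± 0.42, and of 12 progenitor genes 4 rose, among them Myb by 4.83 ± 0.70. Which cells of the cultures held these transcripts was not tested.

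Side by side, the list medians with RSG and with vehicle were 6.18 and 5.94 for mast cells and basophils, 3.20 and 3.05 for neutrophil granules and 4.39 and 5.01 for cytotoxic lymphocytes. Among the members of these 3 lists 0 had a called difference between RSG and vehicle in limma, and 0 had an unadjusted p under 0.05. For Fcer1a the difference was -0.19 ± 0.93 (adjusted p = 0.977) and for Mcpt8 2.90 ± 1.56 (adjusted p = 0.703), and SEs of this size leave room for differences of several-fold. On single KO IL-4 arrays the mast cell list mean was 5.34, 5.38 and 5.02 with RSG and 4.84, 4.51 and 5.06 with vehicle. The leukocyte lists and the interferon list thus moved with IL-4 together on the same arrays, and the part of other cells in the interferon result was not tested.

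**Figure D4:**
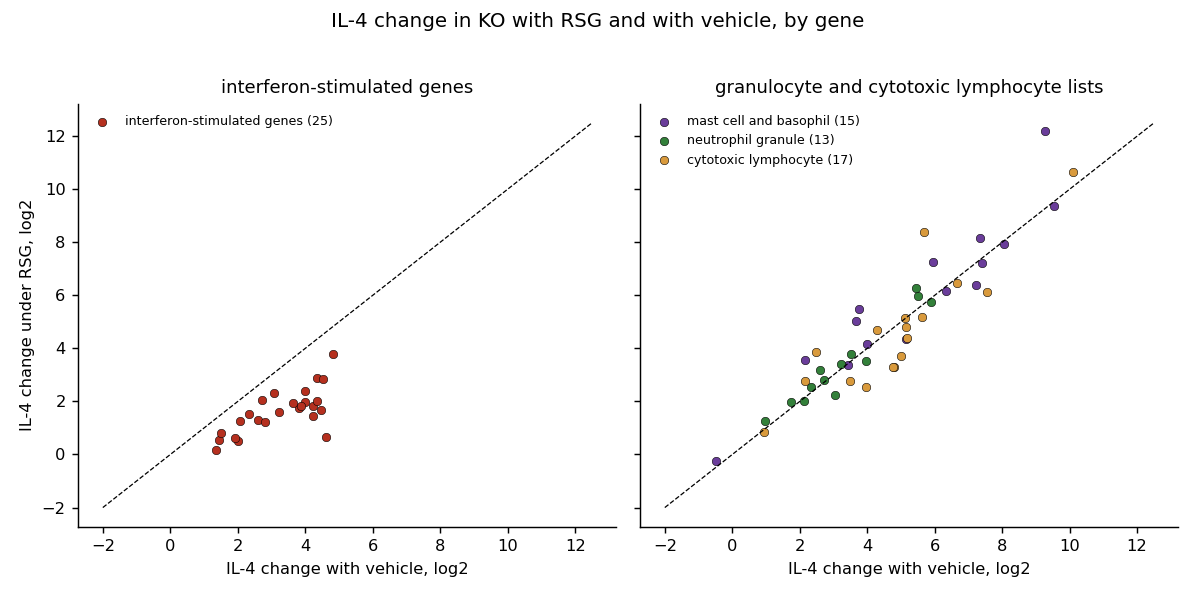
IL-4 change in KO with RSG against that with vehicle, on the log2 scale, each point 1 gene. The dashed line marks equal change. All 25 interferon-stimulated genes lay below the line, whereas members of the mast cell, neutrophil granule and cytotoxic lists lay on both sides of it.

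Inflammatory and antigen-presenting genes also rose. Of 23 proinflammatory cytokines and mediators 11 rose and 0 fell, with a median of 1.31. Il6, an inflammatory cytokine, was at -1.38, -0.61 and 3.34 in KO control RSG and at 6.16, 5.97 and 5.93 in KO IL-4 RSG. The control array of mouse 6 was the highest of its group, and the change was 5.57 ± 1.12 with it and 7.02 without it. Hp, or haptoglobin, changed by 4.05 ± 0.45 and Saa3, an acute-phase protein, by 3.00 ± 0.44, whereas Tnf had a change of 0.09 ± 0.25. Of 21 chemokines and receptors 12 rose and 0 fell, with 7 rising without mouse 4 and 5 without mouse 5, among them Ccl5, which draws T cells and monocytes, by 4.34 ± 0.49, and Ccr2, the receptor of inflammatory monocytes, by 3.58 ± 0.72. Of 10 genes of MHC class II presentation 7 rose and 0 fell, with a median of 2.76. Cd74, the invariant chain, was at -2.87, -2.42 and -2.55 without and at 0.06, 0.17 and 0.27 with IL-4, a change of 2.78 ± 0.31 (adjusted p = 1.95e-05). H2-Oa, a subunit of the regulator H2-O, changed by 3.17 ± 0.32 and H2-Aa, a class II chain, by 3.09 ± 0.56. Ciita, the master regulator of class II genes, had a change of 1.98 ± 0.91 that did not pass. Of 18 genes of dendritic maturation 4 rose, among them Cd274, which encodes PD-L1, by 1.28 ± 0.15, and 2 rose without mouse 4, 5 or 6 or without either array of mouse 5 in the comparison, where Ccr7 and Itgax were lost (adjusted p 0.0539 to 0.0592). In these 4 lists limma called 0 members as different between RSG and vehicle, with 5, 5, 0 and 5 at an unadjusted p under 0.05, and the list medians with vehicle were 1.02, 1.15, 2.20 and 0.85.

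Genes that mark the IL-4 and PPARγ programs responded unevenly. Pparg was at -0.26, -0.58 and -0.99 in KO control RSG and at -0.75, -0.60 and -0.23 in KO IL-4 RSG. The groups overlapped and the change was 0.08 ± 0.24 (adjusted p = 0.902). Fabp4, a fatty acid carrier and a standard target of PPARγ, was at -0.30, 0.27 and -0.07 without and at -1.07, -1.10 and -1.07 with IL-4. It fell by 1.04 (-1.04 ± 0.20, adjusted p = 0.00224), which held without each single array but not without mouse 5 (adjusted p = 0.0544). Of its 4 probe sets 1 was called. Angptl4, a secreted inhibitor of lipoprotein lipase and another target of PPARγ, was at 1.07, 0.66 and -0.21 without and at 1.10, 1.77 and 1.53 with IL-4, and its change of 0.96 ± 0.56 did not pass (adjusted p = 0.356). In WT under RSG, Pparg changed by 1.88 ± 0.24 and Fabp4 by 1.06 ± 0.20. The difference between KO and WT was -1.80 ± 0.34 for Pparg (adjusted p = 0.00197), -2.10 ± 0.28 for Fabp4 (adjusted p = 6.25e-05) and -0.61 ± 0.79 for Angptl4 (adjusted p = 0.721).

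Of 23 alternative activation genes 12 rose and 1 fell, with a median of 1.69. Without the KO control RSG array of mouse 6, 9 rose and 0 fell, without either KO IL-4 RSG array of mouse 5 or 6, 7 rose, and without all arrays of mouse 5, 5 rose. Arg1, arginase 1, was at -4.40, -3.69 and -4.97 in KO control RSG and at -0.74, 0.49 and 0.74 in KO IL-4 RSG, a change of 4.52 ± 1.00 (adjusted p = 0.00759). It was at 2.56, 3.63 and 4.17 in KO IL-4 with vehicle and between 8.38 and 8.45 in WT IL-4 with RSG. The KO IL-4 arrays with RSG thus lay below both, the difference from the change with vehicle was -3.39 ± 1.41 (adjusted p = 0.603) and that from WT was -6.69 ± 1.41 (adjusted p = 0.00408). Without mouse 4, 5 or 6 the change of Arg1 did not pass (adjusted p = 0.0567, 0.0782 and 0.0943).

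Chil3, the chitinase-like lectin Ym1, changed by 2.59 ± 0.36 in KO and 3.63 ± 0.36 in WT, a difference of -1.03 ± 0.51 that did not pass (adjusted p = 0.234). Alox15, a lipoxygenase that oxidises polyunsaturated fatty acids, was at -0.04, 0.97 and 0.04 without and at 4.59, 4.95 and 4.15 with IL-4 in KO. It changed by 4.24 ± 0.91 in KO and had a change of -0.46 ± 0.91 in WT under RSG, which did not pass, a difference of 4.70 ± 1.28 (adjusted p = 0.0227). The change in KO did not pass without mouse 4, 5 or 6 (adjusted p = 0.0927, 0.0744 and 0.0625). It passed when only the 6 KO arrays with RSG were fitted. Retnla, a secreted marker of alternative activation also known as Fizz1, was at -3.04, -2.52 and -3.92 without and at 0.32, 0.45 and 0.47 with IL-4. These groups did not overlap, yet the change of 3.58 ± 1.29 did not pass (adjusted p = 0.103). It passed when only these 6 arrays were fitted (adjusted p = 0.0186) and without mouse 3, a WT mouse (adjusted p = 1.92e-05). On the WT control array of mouse 3 with vehicle, the alternative activation list mean was 1.02, against -1.04 and -1.23 for mice 1 and 2. That array entered the spread behind the SEs, and leaving it out alone was not run. Mrc1, the mannose receptor, fell by 0.71 in KO (-0.71 ± 0.20, adjusted p = 0.0366) and rose by 1.25 ± 0.20 in WT. Its call in KO was lost without any of 5 of the 6 arrays (adjusted p 0.064 to 0.141). Cdh1, or E-cadherin, changed by 5.34 ± 0.95 in KO and 6.03 ± 0.95 in WT, and Ccl22, a chemokine for type 2 helper T cells, by 3.71 ± 0.61 in KO, while its 1.80 ± 0.61 in WT did not pass (adjusted p = 0.0501).

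**Figure D5:**
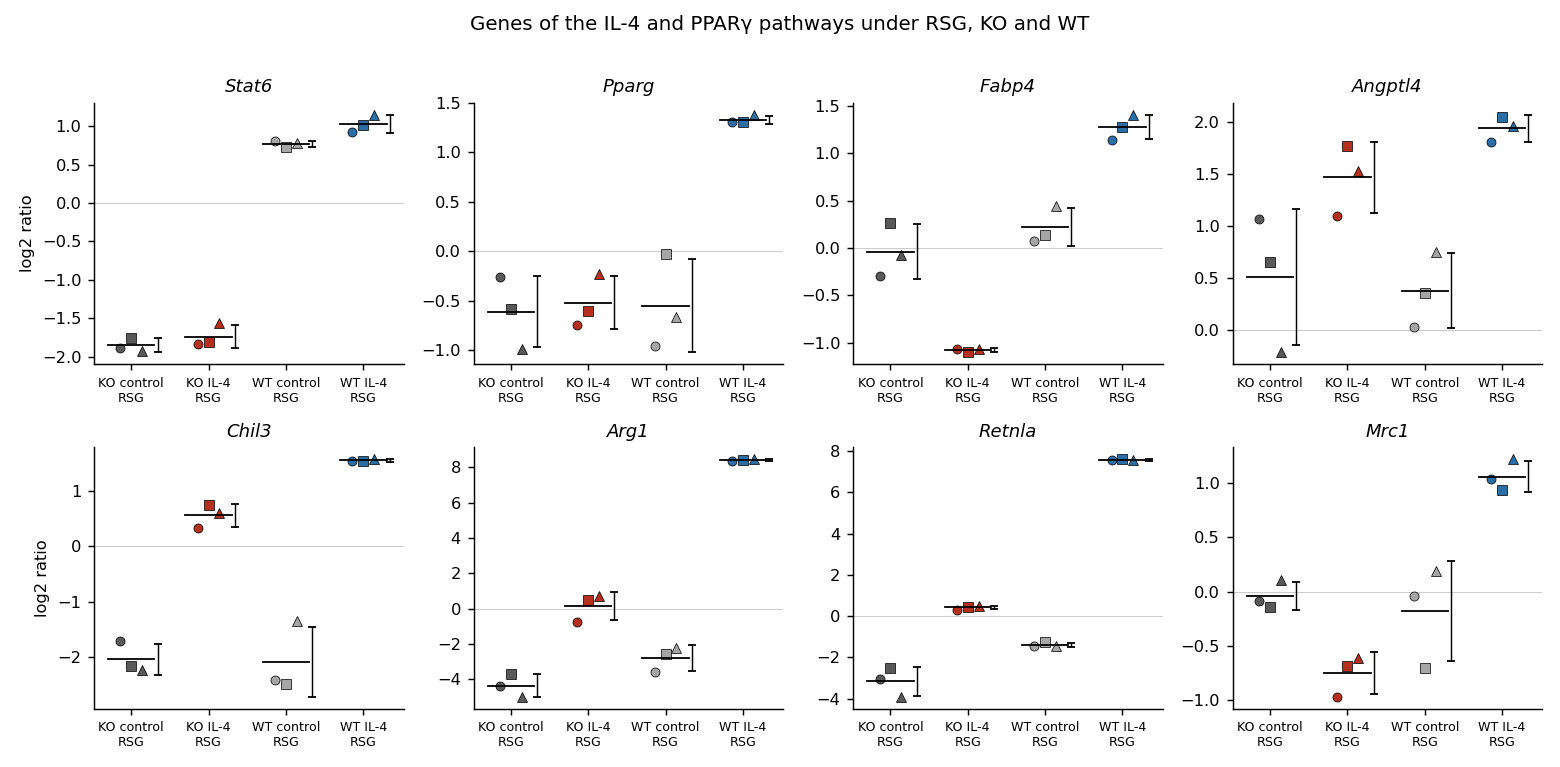
Log2 ratio of 8 genes of the IL-4 and PPARγ programs on each array with RSG, in KO and WT. Circles, squares and triangles are mice 4, 5 and 6 in KO and 1, 2 and 3 in WT, lines are group means and bars are SD over 3 arrays. Stat6 was below -1.5 on all KO arrays, and with IL-4 Pparg, Fabp4, Arg1, Retnla and Mrc1 were higher on every WT array than on every KO array.

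Within IL-4 receptor signalling, 2 of 17 genes rose and 2 fell, against 4.03% and 3.45% of all genes. Fitted to these 6 arrays only, 0 rose and 0 fell. Jak2, a kinase of cytokine receptors, changed by 0.73 ± 0.13 (adjusted p = 0.00211). Irs1, an insulin receptor substrate, was at 0.79, 0.47 and 2.75 without and at 0.00, -1.30 and -2.19 with IL-4, a change of -2.50 ± 0.56, or -1.79 without the control array of mouse 6. Il4ra, the receptor's ligand-binding chain, had a change of -0.01 ± 0.18. The transcript of Il4 itself changed by 2.39 ± 0.61, and that call was lost without any of 4 single arrays (adjusted p 0.0547 to 0.0899).

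In KO, genes of lipid uptake, storage and oxidation were called at about the rate of all genes (4.03% rose, 3.45% fell). At an unadjusted limma p under 0.05 were 9 of 22 uptake and storage genes, 6 of 23 oxidation genes and 3761 of all 18193. Of 22 genes that take up or store lipid under PPAR control, 1 rose and 1 fell in KO (median 0.47), and 12 rose and 1 fell in WT (median 0.98), where 8.68% of all genes rose and 5.94% fell. The gene that rose in KO was Olr1, a receptor for oxidised low-density lipoprotein, at 2.18 ± 0.61, and it was not called without any of 5 single arrays (adjusted p 0.0607 to 0.109). Of 23 genes of fatty acid oxidation 1 rose in KO and 10 in WT. That gene was Ehhadh, a peroxisomal enzyme, at 2.00 ± 0.40, whereas Cpt1a, the gate of mitochondrial fatty acid import, had a change of -0.24 ± 0.17. The change was lower in KO than in WT for 8 of the 22 lipid genes and 9 of the 23 oxidation genes, against 7.47% of all genes, and higher for 1 and 0, against 4.55%. Of 15 sterol synthesis genes 3 fell, and without the KO control RSG array of mouse 6 this count was 1. That gene, Sc5d, a late enzyme of cholesterol synthesis, changed by -1.47 ± 0.27. Of 17 genes of glycolysis and hypoxia 0 passed in limma, 4 had an unadjusted p under 0.05, and 3 rose without that array. In the list of ER stress and the amino acid response 1 of 18 rose (Mthfd2, a mitochondrial folate enzyme, 0.85 ± 0.15) and 1 fell.

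Stromal genes fell, and fewer did without 1 control array. Of 19 genes 7 fell and 1 rose, with a median of -3.77, and without the KO control RSG array of mouse 6, 2 fell and 1 rose, with a median of -2.23. The count was 1 without all arrays of mouse 6, 2 without mouse 5 and 3 without the KO IL-4 RSG array of mouse 6. Sparc, a matrix glycoprotein, was at 3.59, 3.76 and 8.50 in KO control RSG and at -0.99, -0.21 and -1.27 in KO IL-4 RSG. The control arrays of mice 4 and 5 were also above the IL-4 arrays, and that of mouse 6 was higher still. The change was -6.10 ± 1.53 (adjusted p = 0.017), and -4.50 (adjusted p = 0.0841) without the latter. Fstl1, a secreted follistatin-like protein, changed by -6.18 ± 1.32 and by -4.73 without that array, where it was still called (adjusted p = 0.0318). Col1a1 had a change of -3.80 ± 1.44 that did not pass. On the KO arrays with vehicle the stromal list mean lay between -0.77 and 0.40, and 1 stromal gene rose and 0 fell there with IL-4. Timp1, an inhibitor of matrix metalloproteinases, was at 1.91, 2.20 and 5.80 without and at -1.22, -0.72 and -1.08 with IL-4, a change of -4.31 ± 0.96. The share of stromal cells in the cultures was not tested.

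Of 21 macrophage identity genes 4 fell and 1 rose, against 3.45% and 4.03% of all genes. With the KO control RSG array of mouse 6 left out 5 fell and 0 rose. Falls numbered 2 without mouse 4, 6 without mouse 6 and 2 with the probe set of the highest mean. The gene that rose, Fcgr1, a receptor for IgG (0.87 ± 0.25), was not called without any 1 of the 6 arrays (adjusted p 0.061 to 0.111). Maf, a transcription factor of tissue macrophages, was at 1.00, 0.93 and 0.69 without and at -0.81, -0.71 and -0.59 with IL-4, a change of -1.58 ± 0.20 (adjusted p = 6.7e-05). Gas6, a ligand of receptors that clear dead cells, changed by -1.53 ± 0.18 and Stab1, a scavenger receptor, by -1.23 ± 0.23. Csf1r, the M-CSF receptor, had a change of -0.58 ± 0.12, whose p passed (adjusted p = 0.00423) but whose size was just under 1.5-fold. In WT under RSG Maf changed by -3.94 ± 0.20, Gas6 by -3.51 ± 0.18 and Stab1 by -4.88 ± 0.23, and the differences of 2.36, 1.99 and 3.65 between KO and WT were called (adjusted p = 2.51e-05, 5.37e-05 and 8.45e-07). Of 22 cell cycle genes 8 rose, among them Mcm5, a subunit of the replicative helicase, by 1.83 ± 0.25, and 10 rose without the control array of mouse 6. Without mouse 5 the count was 1 and without the KO control RSG array of that mouse it was 5, and 0 passed when only these 6 arrays were fitted or by the methods' t-test. Of 13 osteoclast genes 5 rose, among them Dcstamp, a protein needed for cell fusion, by 3.03 ± 0.40. This count was 2 without mouse 5, in the fit on these 6 arrays and by the methods' t-test, and 3 without any of 4 single arrays, namely the controls of mice 4 and 5 and the IL-4 arrays of mice 5 and 6.

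Under the same drug, the IL-4 response of KO macrophages differed from that of WT macrophages for many genes. The WT arrays were among those that set the choice of each gene's probe set, so that choice was not independent of this comparison. Of the 734 genes that rose in KO, 186 (25.3%) also rose in WT, where 8.68% of all genes rose, and 96 (13.1%) fell there, where 5.94% of all genes fell. The 186 are 11.8% of the genes that rose in WT. By comparison, 562 of the 734 (76.6%) also rose in KO with vehicle, where they are 58.5% of the genes that rose and where 5.28% of all genes rose. The IL-4 change was higher in KO than in WT for 20 of 25 interferon-stimulated genes and lower for 0, against 4.55% of all genes higher and 7.47% lower. In WT under RSG 1 of these genes rose, 10 fell and the median was -0.37. The gene that rose in WT was Usp18, at 2.28 ± 0.24. The IL-4 change was higher in KO also for 12 of 13 neutrophil granule genes and 10 of 15 mast cell and basophil genes, and lower for 11 of 23 alternative activation genes. Lcn2, an iron-binding protein of neutrophil granules, changed by 2.81 ± 0.45 in KO and by -6.14 ± 0.45 in WT, a difference of 8.96 ± 0.64 (adjusted p = 8.74e-08). The WT IL-4 arrays were at -6.64, -5.43 and -6.37, the first being the lowest ratio of the table, so the size of that fall is limited by the floor. With a variance trend, the differences of Mcpt8, Ddx4 and Rnase2a between KO and WT did not pass (adjusted p = 1, 0.945 and 0.98). That of Mcpt8 was 7.03 and did not pass after quantile normalization (adjusted p = 0.0679), and that of Ccbe1, a secreted protein of lymphatic growth, did not pass when only the arrays with RSG were fitted (-8.59, adjusted p = 0.0559). Rnase2a, an eosinophil-type ribonuclease, had a change of 1.26 ± 1.56 in KO that did not pass and changed by 11.70 ± 1.56 in WT. Fstl1 differed by -9.84 ± 1.86 and Ddx4, an RNA helicase of germ cells, by -8.55 ± 0.49, from -0.31 ± 0.35 in KO and 8.24 ± 0.35 in WT. Restricted to the 12 arrays with RSG, the fit called 3238 probe sets as different between KO and WT, against 5041 in the fit on all arrays. Genotype and mouse cannot be told apart in this comparison, since each genotype came from its own 3 mice. Nor can genotype be told apart from a difference in strain, since none is named for the KO mice.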

How the data were processed

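Total RNA of 24 cultures was measured on Affymetrix mouse whole-genome arrays, and the labels gave each array its group and replicate number. The values that the authors deposited are linear ratios in 1 table. Scans, as the methods state, were processed with GC-RMA in GeneSpring, scaled to the 50th percentile of each array and divided by each probe set's median. A further division by the vehicle control, which the methods name, is not in the deposited ratios. GCOS and GCRMA stand in the submitters' processing notes with no version. Ratios hold no level, signal over background is unknown, and precision depends on how many arrays there were. The ratios ran from 0.01 to 1950, with 37 values in 27 probe sets at the lowest value. The median was 1 for 86.3% of probe sets, within 0.001. The table had 0 unused sample columns, and 0 pairs of arrays were identical.

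Analysis used log2 of the ratios as given. Of 45101 probe sets, 64 controls were left out and 45037 entered limma (3.58.1, under R 4.3.3; lmFit on 24 arrays in 8 groups, eBayes without a variance trend, two-sided, Benjamini-Hochberg adjusted). Tables were made with Python 3.11.15 and pandas 2.3.3. The method was also run on simulated log2 ratios with known changes in the KO IL-4 RSG group. Their noise was independent between arrays, with no mouse effect and no outlying array. That run therefore cannot speak to the pairing by mouse or to the control array of mouse 6. Symbols were those of the platform annotation, which listed 1 for 34945 probe sets, several for 932 and none for 9160, and 34741 matched RefSeq identifiers, for 18193 genes. Of a gene's probe sets, the one whose SD was largest over the 18 arrays outside the KO comparison under RSG was used. Other probe sets of a gene may differ. Those 18 arrays include the vehicle and WT arrays. For both differences, and for the changes with vehicle and in WT, the choice was thus not independent of the values tested.

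Members, gene lists and tests were chosen with earlier results of these data known. Named genes were 9 genes of the study's text, the 10 largest called changes in each direction without values at the lowest ratio and with groups that did not overlap, up to 4 called and 2 uncalled members of each of 24 lists (some genes stand in several, such as Lcn2), and the 6 largest called differences in each direction. Members of the interferon list and genes with a called difference beyond these were named after their values were seen. Arrays with the same number in their titles were taken to come from the same mouse, so numbers pair the KO arrays. Same-mouse arrays hardly deviated together (mean correlation 0.0106, 0 of 36 pairs above 0.1), and the fit without a mouse block was kept because the methods' tests were unpaired. P-values measure the spread between cultures, taken as those of 3 mice per genotype.

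Alternatives were the mouse block, the compared arrays alone, a variance trend, a robust prior, quantile normalization, median centring, 2 filters, leaving out each mouse or array, the probe set with the highest mean, and the methods' t-test on the same log2 values. A test restricted to probe sets whose median was 1, and leaving out the 2 arrays highest in stromal genes, were chosen after seeing the data.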

Additional observations from a re-analysis of the deposited data

Results flagged for a closer look

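The IL-4 response of KO macrophages differed between RSG and vehicle, by a direct test of the difference in limma, for 32 probe sets. The genes with the largest called differences were Enpep (-5.95), Ptx3 (-5.90), Rai14 (-4.94), Lnpk (-4.12), Ifit1bl1 (-3.27) and Ifit3 (-2.79), whose IL-4 change was lower with RSG, and Sema4b (4.65) and Mmp12 (1.91), whose change was higher with RSG.

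Under RSG the IL-4 response differed between KO and WT for 5041 probe sets by the same kind of test. The change was higher in KO for the granulocyte genes Mcpt8 (10.23), Prg2 (10.15), Ltf (9.11), Camp (9.05), Ngp (9.00) and Lcn2 (8.96). It was lower in KO for Rnase2a (-10.44), Fstl1 (-9.84), Pdgfra (-9.22), Ccbe1 (-8.59), Ddx4 (-8.55) and Vasn (-8.52). The causes of these differences were not tested.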

How the results depend on the processing

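No named gene changed direction while called, under the alternatives run for single genes, which leave out the choice of the probe set with the highest mean, run for list counts alone. Of 70 named genes with several probe sets, 1 had another probe set called the other way. With mouse as a replicate block, the IL-4 change in KO under RSG had 3089 called probe sets against 3076 without it, the difference between RSG and vehicle 25 against 32 (5 against 7 interferon-list members, with Mx1 and Xaf1 at adjusted p = 0.0848 and 0.0522), and the difference between KO and WT 4902 against 5041. Among named genes, the block and its pairing of arrays gained 1 call for the change under RSG and lost 0, and the lost differences are given beside their values above. Fitting only the compared arrays left 745, 5 and 3238 probe sets, where the fits used fewer arrays, and the methods' t-test left 562 of 3076. For the difference between RSG and vehicle the count was 53 with a variance trend, 12 after quantile normalization and 76 after centring arrays, which moved the median difference from 0.0866 to 0.00321 and 0.00524. Leaving out single mice or arrays gave 1414 (without mouse 5) to 3134 probe sets for the change under RSG, 0 (without mouse 6, where 2588 had an unadjusted p under 0.05) to 61 (without the KO IL-4 vehicle array of mouse 4) for the difference between RSG and vehicle, and 3086 (without mouse 2) to 4938 for that between KO and WT. The causes were not tested. Of 104 named calls under RSG, 32 held under every alternative run for single genes. With 3 arrays a group and no measure of signal over background, small changes and genes near background cannot be judged.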
